A study of Mus musculus with 9 samples.

Results

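Transcripts of the epidermal growth factor (EGF) receptor system were followed in mouse lung after injurious ventilation, by 10 genes out of the 27203 gene identifiers in the expression table. The genes were taken by symbol: the ligands Areg, Ereg, Hbegf, Tgfa, Btc and Nrg1, the receptors Egfr, Erbb2 and Erbb3, and the sheddase Adam17. Each lung came from a male C57BL/6 mouse of 6 to 8 weeks that had been anesthetized with ketamine and xylazine and intubated, and 3 libraries were available per group. The control group was not ventilated. The VILI (ventilator-induced lung injury) groups received pancuronium and 4 hours of ventilation at a tidal volume of 20 ml/kg, 40 breaths per minute and no end-expiratory pressure (0 cm H2O), and lungs were taken directly afterwards (VILI 0 hours) or after 6 hours (VILI 6 hours). Ventilation, muscle relaxation and prolonged anesthesia came together in the VILI groups and cannot be told apart. The methods list several times after the control procedure and do not say which applies to the sequenced control lungs.

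EGF family ligands are made as membrane-anchored precursors, and a metalloprotease of the cell surface cuts them free in a step called ectodomain shedding. ADAM17 is the main sheddase of amphiregulin, epiregulin, HB-EGF and TGF-alpha, while betacellulin is cut mainly by ADAM10. The freed ligands bind EGFR, and neuregulin 1 binds ErbB3 and ErbB4, with ErbB2, which has no known ligand, as the preferred partner. In the lung the system is known for epithelial growth and for the repair of wounded epithelium. Shedding takes place on the protein, so the transcript levels given here measure neither cleavage nor free ligand.

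Values were FPKM, fragments scaled to the length of the transcript and the size of the library, summed over the transcript rows of each gene. Differences are given as log2 fold changes on log2(FPKM + 0.1), which understates changes of genes near 0.1 FPKM. A gene counts as called at an unadjusted limma P under 0.05, the threshold used by the study, which is the same as a 95% interval that leaves out 0. The depth of each library is not carried by these values, and column sums ran from 366360 to 388459 FPKM. The lowest Spearman correlation between libraries of a group was 0.944 in VILI 6 hours and 0.987 in control. Replicate 1 of VILI 6 hours stood nearer to the controls (0.977 to 0.979) than to the other libraries of its own group (0.944 to 0.963), so the values of the 10 genes at 6 hours against control are also given without it. Marker genes of alveolar type 2 cells summed to between 11893 and 14879 FPKM in the 9 libraries, and none of the lung cell markers checked was at 0 throughout. Neutrophil markers (5 genes) summed to 45.5 to 53.3 FPKM in control. After ventilation their sum was 540 to 965 FPKM at 0 hours and 446 to 1857 FPKM at 6 hours. In bulk tissue, fewer cells of a type and less RNA per cell cannot be told apart.

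All 10 genes are protein coding. On GRCm38, Ereg (chr5:91074622-91093646), Areg (chr5:91139599-91148432) and Btc (chr5:91357261-91402994) lie in sequence on chromosome 5, with Btc on the minus strand. Tgfa lies at chr6:86195223-86275719 and Nrg1 at chr8:31814551-32884029. Of the receptor genes, Egfr spans chr11:16752203-16918158, Erbb2 chr11:98412470-98437716 and Erbb3 chr10:128567523-128589652, and Adam17 lies at chr12:21323509-21373632. Each level below covers the whole gene, since the rows carry no transcript names.

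The start regions of Areg, Tgfa and Egfr are shown because these genes differ in how evenly their levels ran within the VILI groups. This choice was made from these same data. RefSeq start regions on GRCm38.p6, with 250 bases before and 50 after the annotated start, were searched for 6 of the 10 genes. Capitals mark matches on either strand to a cyclic AMP response element (TGACGTCA), a GC box (GGGCGG) or a TATA box (TATAAA).
Areg, chr5:91139349-91139648, plus strand: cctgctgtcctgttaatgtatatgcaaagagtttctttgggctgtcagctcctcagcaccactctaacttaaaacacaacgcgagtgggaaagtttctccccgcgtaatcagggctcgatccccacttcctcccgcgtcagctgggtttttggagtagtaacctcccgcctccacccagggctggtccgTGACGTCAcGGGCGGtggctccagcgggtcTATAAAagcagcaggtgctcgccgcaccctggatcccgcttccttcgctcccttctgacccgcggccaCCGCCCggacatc
Tgfa, chr6:86194972-86195271, plus strand: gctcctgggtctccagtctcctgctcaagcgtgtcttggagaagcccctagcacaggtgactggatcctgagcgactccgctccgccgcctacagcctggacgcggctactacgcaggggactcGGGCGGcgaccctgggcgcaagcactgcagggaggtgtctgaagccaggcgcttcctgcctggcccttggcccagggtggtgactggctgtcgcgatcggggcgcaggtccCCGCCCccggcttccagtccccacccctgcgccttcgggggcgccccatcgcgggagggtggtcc
Egfr, chr11:16751953-16752252, plus strand: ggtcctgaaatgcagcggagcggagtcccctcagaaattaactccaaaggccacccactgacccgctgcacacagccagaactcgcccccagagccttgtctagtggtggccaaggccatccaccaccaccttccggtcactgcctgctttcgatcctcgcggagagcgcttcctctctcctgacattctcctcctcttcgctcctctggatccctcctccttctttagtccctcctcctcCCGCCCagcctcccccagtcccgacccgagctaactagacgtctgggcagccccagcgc

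The start regions of Ereg, Hbegf, Nrg1 and Erbb3 were not searched, so whether they hold these motifs was not tested. Among the 6 genes searched, only Areg had the cyclic AMP response element, at base 190, and the TATA box, at base 220. Of 32851 start regions of this length, 1.79% held the former and 13.6% the latter. GC boxes stood at bases 199 and 288 in Areg, 125 and 236 in Tgfa, 242 in Egfr and 176 in Adam17, so 4 of the 6 held at least 1, against 35.7% of all start regions. The AP-1 motif TGANTCA, held by 7.81% of all, was in none of the 6. The window was 59.3% G and C in Areg, 70.7% in Tgfa and 62.3% in Egfr, with a median of 52.7% over all. These matches describe letters in the windows and no binding was measured. A link between these letters and how evenly the levels ran was not tested.

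Adam17 was the most abundant of the 10 transcripts in control lung, at 19.99 ± 1.47 FPKM (SD, n = 3). Hbegf (16.002 ± 1.20 FPKM) and Erbb3 (14.6 ± 0.0469 FPKM) followed and overlapped each other. Below them came Erbb2 (10.6 ± 0.829 FPKM), Egfr (6.17 ± 0.530 FPKM) and Tgfa (4.85 ± 0.243 FPKM), each separate from the next. Nrg1 (3.00 ± 0.539 FPKM) and Areg (2.28 ± 0.378 FPKM) overlapped, Btc stood at 1.49 ± 0.270 FPKM, and Ereg was near 0 at 0.0200 ± 0.0218 FPKM. In VILI 0 hours Erbb3 stood above Hbegf without overlap, and Hbegf overlapped Egfr and Egfr overlapped Erbb2. In VILI 6 hours Hbegf, Adam17 and Erbb3 overlapped at the top, and all neighbours from Nrg1 down to Ereg overlapped.

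**Figure D1:**
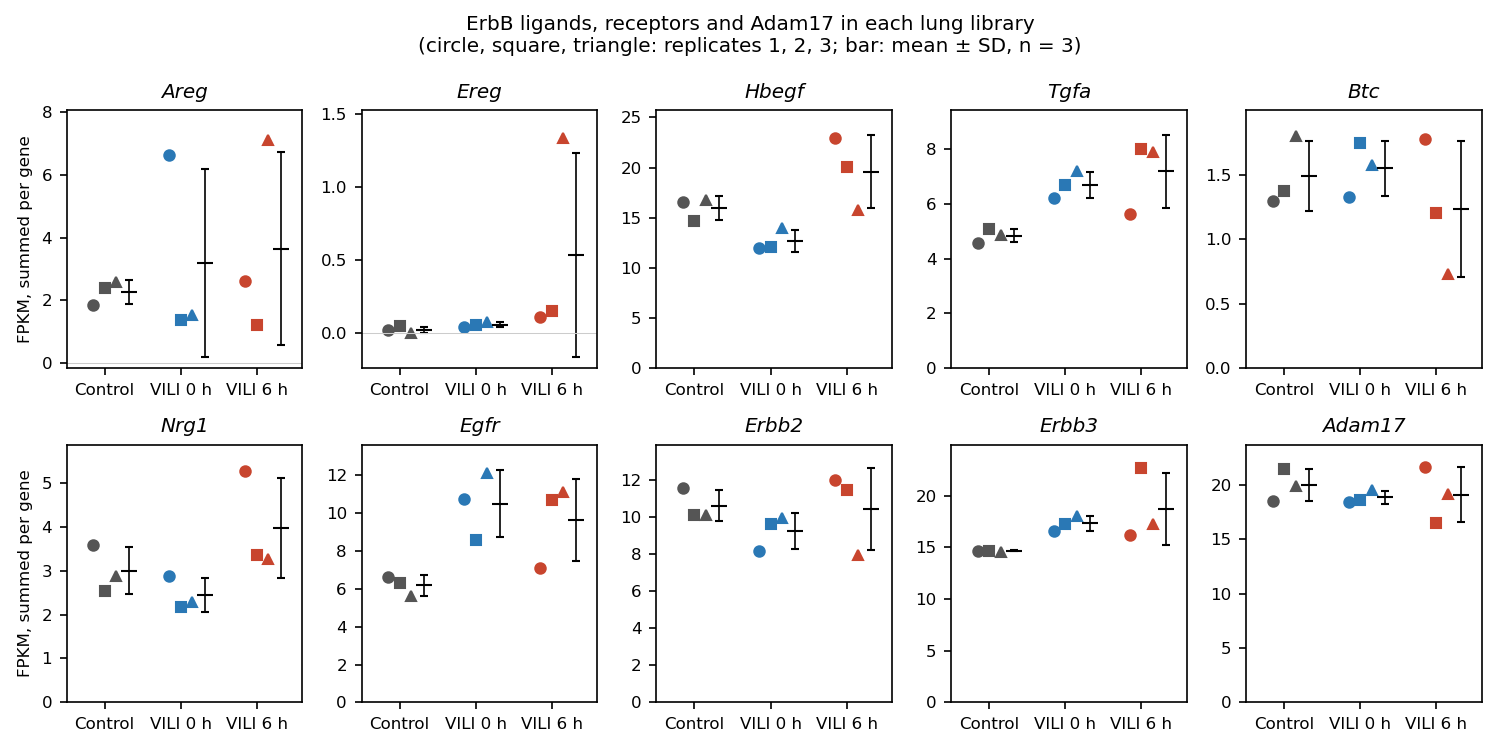
FPKM of the 10 genes in each library (vertical axes, linear and separate for each gene) by group, with circles, squares and triangles for replicates 1, 2 and 3 and bars for mean ± SD of 3 libraries. Egfr and Tgfa sit above the highest control in all 6 VILI libraries, while Areg spreads from 1.21 to 7.12 FPKM in VILI 6 hours.

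Directly after ventilation, Egfr and Tgfa transcripts rose and Hbegf fell, which makes 3 of the 10 genes past the threshold against 16.2% of the 19378 genes tested. By direction, 2 rose where 6.81% of all genes did, and 1 fell where 9.35% did. After 6 hours, Egfr, Tgfa, Erbb3 and Ereg were higher than in control, so 4 of 10 passed against 20.4% of all genes, all of them in the direction that 8.17% of all genes took and none in the direction of the other 12.2%. Ereg reached the test only through 1 library of VILI 6 hours, so its place in this count is no support; the other 3 stand among 9 genes. Between the VILI groups, Hbegf and Nrg1 were higher at 6 hours, 2 of 10 against 10% of all genes, both in the direction that 5.06% took, where 4.94% were lower. After Benjamini-Hochberg adjustment of the limma P over all genes, 0 of the 10 passed 0.05 in any comparison, where 55 genes (0.284%) and 136 genes (0.702%) passed against control at 0 and 6 hours and 0 between the VILI groups. These adjusted counts depended on the libraries in the limma fit. With the 6 libraries of a comparison alone, Egfr (adjusted p = 0.0255) and Tgfa (adjusted p = 0.0394) passed at 0 hours, where 1597 of all genes did. Without VILI 6 hours replicate 1 the same genes passed at 0 hours, where 1343 of all genes did, and Egfr, Tgfa, Erbb3 and Ereg passed at 6 hours (adjusted p = 0.0055 to 0.0370), where 4512 did. The comparisons with control share the same 3 control lungs. The median log2 fold change of the 10 genes was 0.08 at 0 hours, 0.33 at 6 hours and 0.13 between the times, beside −0.07, −0.09 and −0.02 over all genes tested.

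**Figure D2:**
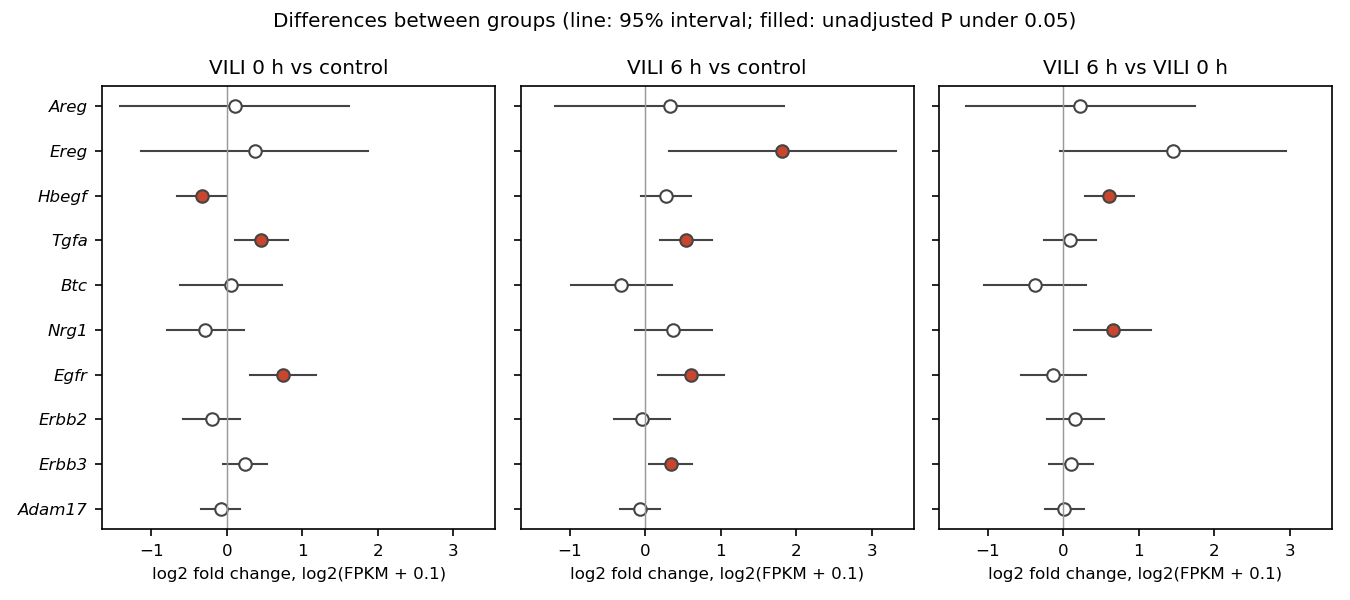
Log2 fold changes of the 10 genes on log2(FPKM + 0.1) (horizontal axis) in the 3 comparisons, with 95% intervals from the limma fit as lines and filled points for an unadjusted P under 0.05. Egfr lies at 0.74 and 0.61 against control, and the intervals of Areg span more than those of the abundant genes.

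Among the ligands, Tgfa, which encodes TGF-alpha, stood at 4.59, 5.07 and 4.89 FPKM in control, 6.23, 6.69 and 7.20 in VILI 0 hours and 5.65, 8.02 and 7.92 in VILI 6 hours. Every VILI library was above every control library. The log2 fold change was 0.46 at 0 hours (SE 0.16, 95% interval 0.11 to 0.81, adjusted p = 0.200, limma) and 0.54 at 6 hours (SE 0.16, 0.19 to 0.89, adjusted p = 0.122, limma). The VILI groups differed by 0.08 (interval −0.26 to 0.43, adjusted p = 0.899). At 6 hours the value without replicate 1 was 0.71, still past the threshold. At 0 hours the threshold was missed without control replicate 1 (0.42) or VILI 0 hours replicate 3 (0.41).

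Hbegf, encoding heparin-binding EGF-like growth factor (chr18:36504927-36515805), took the opposite direction at 0 hours. Its FPKM were 16.6, 14.6 and 16.8 in control, 12.0, 12.1 and 14.0 in VILI 0 hours and 23.0, 20.1 and 15.7 in VILI 6 hours. The VILI 0 hours values lay below all controls, and VILI 6 hours overlapped control through replicate 3 and lay above all of VILI 0 hours. Hbegf fell by 0.33 on the log2 scale at 0 hours (SE 0.15, 95% interval −0.66 to −0.0067, adjusted p = 0.300, limma). This call is close to the threshold: it was missed without control replicate 1 or 3, VILI 0 hours replicate 1 or 2, or VILI 6 hours replicate 2 (−0.33 to −0.30), with libraries centred on their medians (−0.22), and, at the same value, with a replicate block, with eBayes without trend and in the row with the highest mean. Against control at 6 hours the difference was 0.28 (−0.05 to 0.60, adjusted p = 0.305), 0.15 without replicate 1 and 0.42, past the threshold, without replicate 3. From 0 to 6 hours the level rose by 0.61 (SE 0.15, 0.28 to 0.94, adjusted p = 0.248, limma), rank 165 of 19378 genes by P. Each of the 9 libraries could be left out with this call kept (0.49 to 0.76).

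Nrg1, which encodes neuregulin 1, had 3.59, 2.54 and 2.87 FPKM in control, 2.88, 2.16 and 2.29 in VILI 0 hours and 5.27, 3.35 and 3.27 in VILI 6 hours. Both VILI groups overlapped control but not each other. It was higher at 6 than at 0 hours by 0.65 (SE 0.23, 0.14 to 1.16, adjusted p = 0.403, limma). Without VILI 6 hours replicate 1, its highest library, the difference was 0.44, and without VILI 0 hours replicate 2 or 3 it was 0.58 or 0.61, each missing the threshold. Against control the differences were −0.28 (−0.79 to 0.23, adjusted p = 0.577) and 0.37 (−0.14 to 0.88, adjusted p = 0.367), which became −0.15 when control replicate 1 was left out and 0.15 when VILI 6 hours replicate 1 was. Nrg1 was spread over 12 transcript rows, and the row with the highest mean held 45.4% of the gene. That row had 0.964, 1.82 and 1.501 FPKM in control, 0.831, 0.733 and 1.004 in VILI 0 hours and 2.42, 1.78 and 1.75 in VILI 6 hours. The split of reads between such rows is the authors' estimate and is uncertain at these levels.

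VILI 6 hours replicate 1, with the highest Hbegf and Nrg1, stood at an end of the range for 10 of the 12 marker lists. It had the highest sums for club and ciliated cells (40355 FPKM, 4 genes, against 23075 to 31800 in the other 8 libraries), alveolar type 1 cells, smooth muscle, mast cells and alveolar macrophages. Single genes did not all follow these sums. The macrophage sum (559 against 158 to 341 FPKM) was carried by Chil3 (528 FPKM), while Mrc1, Marco and Siglecf lay within the range of the other libraries. It had the lowest sums for type 2, endothelial, T, B and cardiac muscle cells, with every gene of the T and B cell lists at its lowest there. Of the type 2 genes only Sftpc was at its lowest, and it made up 9683.5 of the 11893 FPKM of that sum. Pecam1 and Cdh5 of 5 endothelial genes, and Myl7 and Nppa of 4 cardiac genes, were at their lowest too. So were Pdgfra and Dcn of 4 fibroblast genes, though the fibroblast sum was not. Abca3, also a type 2 marker, was at its highest (111 FPKM against 65.7 to 95.3). The part of these differences in the Hbegf and Nrg1 values was not tested.

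Areg, encoding amphiregulin, was the most uneven of the ligands above 1 FPKM in the VILI groups. It had 1.85, 2.40 and 2.58 FPKM in control, 6.64, 1.36 and 1.54 in VILI 0 hours and 2.62, 1.21 and 7.12 in VILI 6 hours. In each VILI group a library stood above 6 FPKM while another lay below the lowest control. The log2 fold changes against control were 0.10 (−1.41 to 1.62, adjusted p = 0.957) and 0.33 (−1.19 to 1.84, adjusted p = 0.800). On the linear scale these intervals run from 0.376-fold to 3.07-fold and from 0.438-fold to 3.59-fold. Leaving out VILI 0 hours replicate 1 or VILI 6 hours replicate 3 turned the sign, to −0.60 and −0.32, and the 6 hours value was 0.39 without replicate 1.

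Ereg, encoding epiregulin, was at 0.0169, 0.0432 and 0 FPKM in control, 0.0385, 0.0527 and 0.0699 in VILI 0 hours and 0.106, 0.149 and 1.34 in VILI 6 hours. All 3 VILI 6 hours values lay above those of the other groups, with replicate 3 far above the rest. The log2 fold change against control was 1.82 (SE 0.67, 0.32 to 3.32, adjusted p = 0.182, limma), and 2.33 without replicate 1. It was 0.93 and missed the threshold without VILI 6 hours replicate 3, and missed it also without control replicate 3. The mean over all libraries was 0.201 FPKM, and 0.0595 without VILI 6 hours replicate 3, so Ereg passed the minimum of 0.1 FPKM only through that library. Neutrophil marker sums were also highest there (1857 FPKM), and their part in the Ereg value was not tested. Between the VILI groups the difference was 1.45 (−0.05 to 2.95, adjusted p = 0.511). It was 0.56 without VILI 6 hours replicate 3, and 1.97 and 1.83, both past the threshold, without replicate 1 and replicate 2.

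Btc, encoding betacellulin, stayed between 0.729 and 1.80 FPKM over the 9 libraries with overlap between all groups. Its differences were 0.06 (adjusted p = 0.942) at 0 hours, −0.31 (−0.99 to 0.36, adjusted p = 0.563) at 6 hours and −0.37 (−1.05 to 0.30, adjusted p = 0.720) between them. Without VILI 6 hours replicate 1 the values at 6 hours were −0.60 against control and −0.66 against VILI 0 hours, both past the threshold, and without replicate 3 they were −0.0095 and −0.069.

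Areg, Ereg, Hbegf, Tgfa and Btc are the 5 of the 6 ligands followed here that bind Egfr itself. Egf and Epgn, which also bind it, were not among the 10 genes, and both lay at or below 0.328 FPKM in every library. Summed over the 5 ligands, the levels were 24.3, 23.5 and 26.1 FPKM in control, 26.2, 22.0 and 24.4 in VILI 0 hours and 33.1, 30.7 and 32.8 in VILI 6 hours. The sum in VILI 6 hours was above all other libraries, while VILI 0 hours overlapped control. The share of Hbegf in the sum was 62.2 to 68.2% in control, 45.7 to 57.3% directly after ventilation and 47.9 to 69.3% at 6 hours. Tgfa made up 18.8 to 21.6%, 23.7 to 30.5% and 17.1 to 26.1%. Areg reached 25.3% in VILI 0 hours replicate 1 and 21.7% in VILI 6 hours replicate 3, against 3.95 to 10.2% in the other libraries. These shares were described and not tested.

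**Figure D3:**
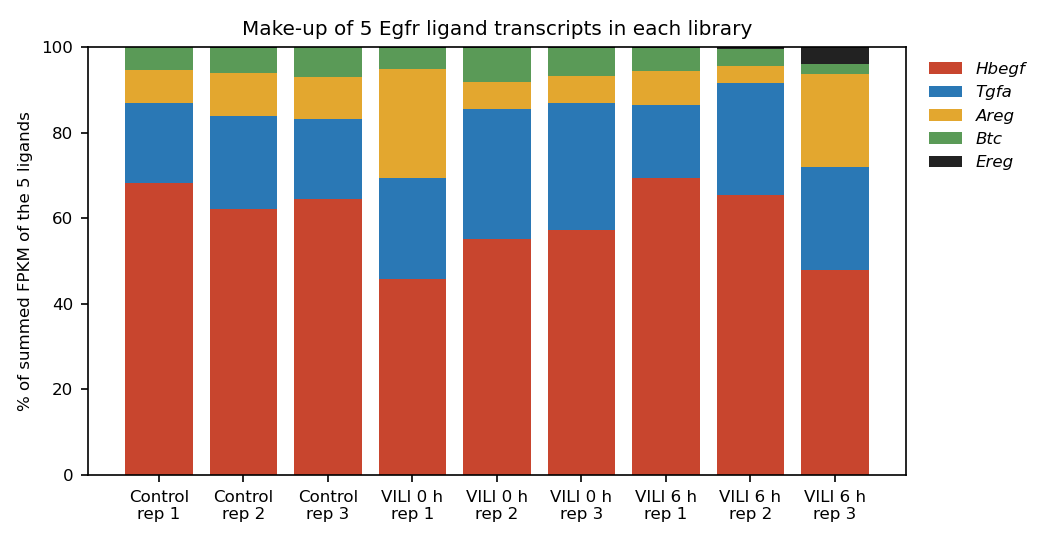
Share of each ligand in the summed FPKM of Areg, Ereg, Hbegf, Tgfa and Btc (vertical axis, %, 0 to 100) in each of the 9 libraries, stacked by color. Hbegf takes 62.2 to 68.2% in control and 45.7 to 57.3% in VILI 0 hours, and the Areg segment is largest in VILI 0 hours replicate 1 (25.3%).

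Egfr, the receptor of these ligands, had the lowest P of the 10 genes against control at 0 hours. It was at 6.63, 6.29 and 5.60 FPKM in control, 10.7, 8.60 and 12.1 in VILI 0 hours and 7.12, 10.7 and 11.1 in VILI 6 hours. All 6 VILI libraries were above all controls, with replicate 1 of VILI 6 hours the nearest. Endothelial marker sums (5 genes) ran from 696 to 731 FPKM in control and from 759 to 856 in VILI 0 hours, and were 629, 830 and 866 in VILI 6 hours, where replicate 1 had the lowest of all. The genes of the list differed in direction: Cdh5 and Pecam1 were above all controls in every VILI library but replicate 1 of VILI 6 hours, Cldn5 in every one but replicate 2 of VILI 0 hours, Vwf overlapped control, and Tie1 was lower in all 6 VILI libraries (33.2 to 59.0 FPKM) than in any control (60.6 to 61.3). Sums for club and ciliated cells, alveolar macrophages and neutrophils were also above all controls in every VILI 0 hours library. Of their genes, Scgb3a2, Foxj1, Dnah5 and Marco overlapped control. The part of any of these cells in the Egfr values was not tested. Egfr rose 1.68-fold at 0 hours (log2 0.74, SE 0.19, 0.31 to 1.18, adjusted p = 0.113, limma) and 1.53-fold at 6 hours (log2 0.61, SE 0.19, 0.18 to 1.04, adjusted p = 0.143, limma). Both calls held with each library left out (0.63 to 0.88 and 0.49 to 0.81), the last being the value without VILI 6 hours replicate 1. The times differed by −0.13 (−0.57 to 0.30, adjusted p = 0.857). Of its 3 rows the first held 91.7% of the gene.

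Erbb3, a receptor with weak kinase activity that signals through its partners, had 14.7, 14.7 and 14.6 FPKM in control, 16.6, 17.3 and 18.1 in VILI 0 hours and 16.2, 22.7 and 17.3 in VILI 6 hours. The controls lay within 0.1 FPKM of one another and below every VILI library. At 6 hours Erbb3 rose by 0.34 (SE 0.13, 0.05 to 0.62, adjusted p = 0.192, limma), and at 0 hours the difference was 0.24 (−0.05 to 0.53, adjusted p = 0.398). The 6 hours call was missed without any 1 control or without VILI 6 hours replicate 2 (0.19), and was kept without replicate 1 (0.43). With only the 6 libraries compared in the fit, Erbb3 passed the threshold at 0 hours and missed it at 6 hours.

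Erbb2, the partner receptor, was at 11.6, 10.1 and 10.1 FPKM in control, 8.13, 9.61 and 9.94 in VILI 0 hours and 12.0, 11.4 and 7.91 in VILI 6 hours. VILI 0 hours lay just below control, by −0.20 (−0.57 to 0.18, adjusted p = 0.594, or −0.11 without VILI 0 hours replicate 1), and VILI 6 hours overlapped it at −0.04 (−0.42 to 0.33, adjusted p = 0.899), or −0.15 without replicate 1. Between the VILI groups, which overlapped, the difference was 0.16 (−0.22 to 0.53, adjusted p = 0.804), 0.047 without VILI 6 hours replicate 1 and 0.34, past the threshold, without replicate 3. Adam17, the sheddase, was at 18.6, 21.5 and 19.9 FPKM in control, 18.4, 18.6 and 19.6 in VILI 0 hours and 21.7, 16.6 and 19.1 in VILI 6 hours. Its groups overlapped in all comparisons, with differences of −0.08 (−0.34 to 0.18, adjusted p = 0.772), −0.07 (−0.33 to 0.19, adjusted p = 0.752) and 0.01 (−0.25 to 0.27, adjusted p = 0.984). At 0 hours the difference of Adam17 ran from −0.13 without control replicate 1 to −0.027 without control replicate 2. Without VILI 6 hours replicate 1 the differences of Adam17 at 6 hours were −0.16 and −0.083. Groups that did not overlap were found for 5 of the 10 genes at 0 hours (3 higher, 2 lower, against 12.0% and 21.6% of all genes), 4 at 6 hours (all higher, Ereg included, against 9.64%, with 15% of all genes lower) and 3 between the times (all higher, Ereg included, against 6.25%, with 6.28% of all genes lower).

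Of 73 other genes of the pathway, listed by role, 70 could be tested. Epgn, Nrg3 and Erbb4 had a mean below 0.1 FPKM, and Nrg3 was listed at 0 in all libraries. At 0 hours 9 of the 70 rose and 5 fell, at 6 hours 18 rose and 5 fell, and between the VILI groups 11 were higher and 0 lower at 6 hours. That is 14, 23 and 11 of 70 past the threshold, against 16.2%, 20.4% and 10% of all genes. Their median log2 fold changes were 0.01, 0.09 and 0.04, and 0 passed after Benjamini-Hochberg adjustment (limma, lowest adjusted p = 0.0650). With the 6 libraries of a comparison alone, 9 passed the adjustment at 0 hours. Without VILI 6 hours replicate 1, 10 passed it at 0 hours, 24 at 6 hours and 5 between the VILI groups (356 of all genes). Where any other single library was left out, 0 or 1 passed. For the same fits the adjusted counts over all genes, given above with those of the 10 genes, also rose at 0 and 6 hours. Without VILI 6 hours replicate 1, 33 of the 70 passed at 6 hours, where 38.8% of all genes did, and 22 between the VILI groups, where 22.4% did. The other ligands tested, Egf, Nrg2 and Nrg4, passed in no comparison.

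Among 12 sheddases and their regulators, 2 rose and 2 fell at 0 hours, 5 rose and 2 fell at 6 hours, and 3 were higher at 6 than at 0 hours. Of all genes, 6.81% rose and 9.35% fell at 0 hours, 8.17% and 12.2% at 6 hours, and 5.06% were higher and 4.94% lower between the times. Adam8, a metalloprotease of leukocytes, rose by 1.46 at 0 hours (adjusted p = 0.0757) and by 1.38 at 6 hours (adjusted p = 0.0723), from 3.83 to 5.46 FPKM in control to 9.69, 12.3 and 19.9 and then 8.47, 14.6 and 16.2. The neutrophil marker sums given above were also higher in all VILI libraries, and their part in the Adam8 values was not tested. Furin, the convertase that removes the ADAM17 prodomain, rose by 0.53 (adjusted p = 0.135) and 0.72 (adjusted p = 0.0650), from 29.2 to 31.0 FPKM in control to 40.1 to 48.2 and 38.6 to 58.2. Taking only the Furin row with the highest mean gave 0.05 and 0.82, both missing the threshold, and the cause was not tested. VILI 0 hours replicate 1 had 10.9 FPKM in that row and 36.6 in another of the 5 rows. Bace1, a neuregulin-cleaving protease, fell by 0.74 at 0 hours (adjusted p = 0.190), and by 0.43 without VILI 0 hours replicate 1. Adam15, another metalloprotease of the family, rose by 0.74 at 6 hours against control (adjusted p = 0.0958) and by 0.62 against VILI 0 hours (adjusted p = 0.339). Rhbdf2, which carries ADAM17 to the cell surface, was 0.48 higher at 6 than at 0 hours (adjusted p = 0.348), and the metalloprotease gene Adam9 was 0.32 higher (adjusted p = 0.432). Adam9 missed the threshold without VILI 0 hours replicate 1 or 3 or VILI 6 hours replicate 2 or 3 (0.22), with median centring, with the 6 libraries alone and with eBayes without trend. Against control at 6 hours, Rhbdf2 (0.45, limma adjusted p = 0.151), Adam9 (0.43, adjusted p = 0.116) and Bace1 (−0.87, adjusted p = 0.115) also passed the threshold. These values were added after they were seen and not repeated with libraries left out.

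**Figure D4:**
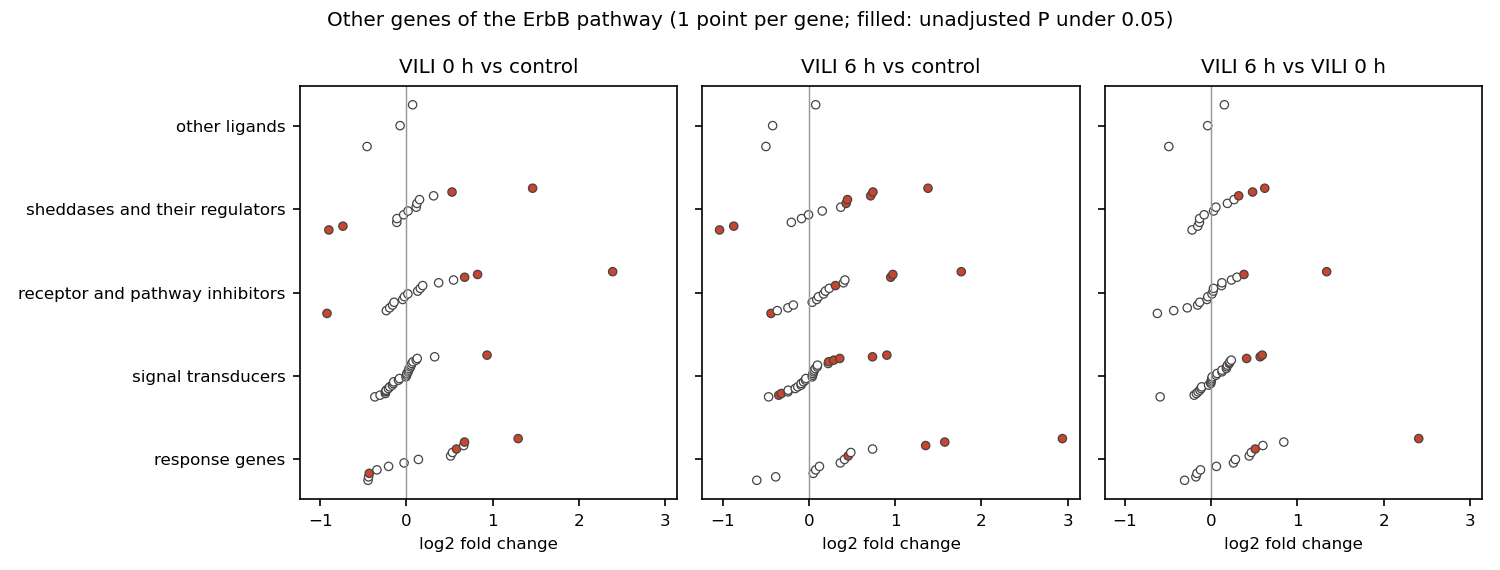
Log2 fold changes (horizontal axis) of the 70 other pathway genes tested, with 1 point per gene in rows by role, in the 3 comparisons. Filled points have an unadjusted P under 0.05, which 14, 23 and 11 of the 70 reached.

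Of 16 inhibitors of the receptors and their pathway, 3 rose and 1 fell at 0 hours, 4 rose and 1 fell at 6 hours, and 2 were higher at 6 than at 0 hours, against 6.81% up and 9.35% down, 8.17% up and 12.2% down, and 5.06% higher among all genes. Errfi1, a feedback inhibitor that binds the EGFR kinase domain, had 31.6, 26.4 and 41.4 FPKM in control, 163, 109 and 284 in VILI 0 hours and 30.8, 201 and 221 in VILI 6 hours. VILI 0 hours lay above all controls, while VILI 6 hours replicate 1 lay within them. The log2 fold changes were 2.39 at 0 hours (SE 0.67, adjusted p = 0.135) and 1.77 at 6 hours (adjusted p = 0.192). The latter was 2.69 without replicate 1, and the threshold was missed without control replicate 1 or 2 or VILI 6 hours replicate 2 or 3 (1.27 to 1.75). Spry4, an inhibitor of MAP kinase signalling, had 9.56, 8.89 and 10.8 FPKM in control, 20.6, 11.7 and 21.5 in VILI 0 hours and 13.0, 21.6 and 24.0 in VILI 6 hours. All VILI libraries were above control, by 0.83 (adjusted p = 0.194) and 0.95 (adjusted p = 0.123), the first missing the threshold without VILI 0 hours replicate 1 or 3.

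Egfr, Errfi1 and Spry4 shared their lowest library of VILI 6 hours, replicate 1, and their lowest of VILI 0 hours, replicate 2. Gab2 and Furin of the other lists, and Klhl2, described below, had the same lowest libraries. Over all genes, replicate 1 of VILI 6 hours stood nearer to the controls than to its own group. How many genes share these lowest libraries was not counted. Cbl, the ubiquitin ligase that marks activated EGFR for degradation, had 18.1, 8.58 and 17.4 FPKM in control, 6.74, 7.87 and 7.38 in VILI 0 hours and 19.1, 18.4 and 18.5 in VILI 6 hours. It fell by 0.92 at 0 hours (adjusted p = 0.120) and was 1.34 higher at 6 than at 0 hours (adjusted p = 0.152). Control replicate 2 lay with VILI 0 hours rather than with the other controls. Ptpn1, a phosphatase acting on receptor kinases, rose by 0.68 (adjusted p = 0.184) and 0.97 (adjusted p = 0.0733). Lrig3, of a family of transmembrane receptor regulators, fell by 0.44 at 6 hours (adjusted p = 0.134), and Spred1, an inhibitor of MAP kinase signalling, was 0.38 higher at 6 than at 0 hours (adjusted p = 0.385). Spred1 missed the threshold without VILI 0 hours replicate 3 and with median centring.

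**Figure D5:**
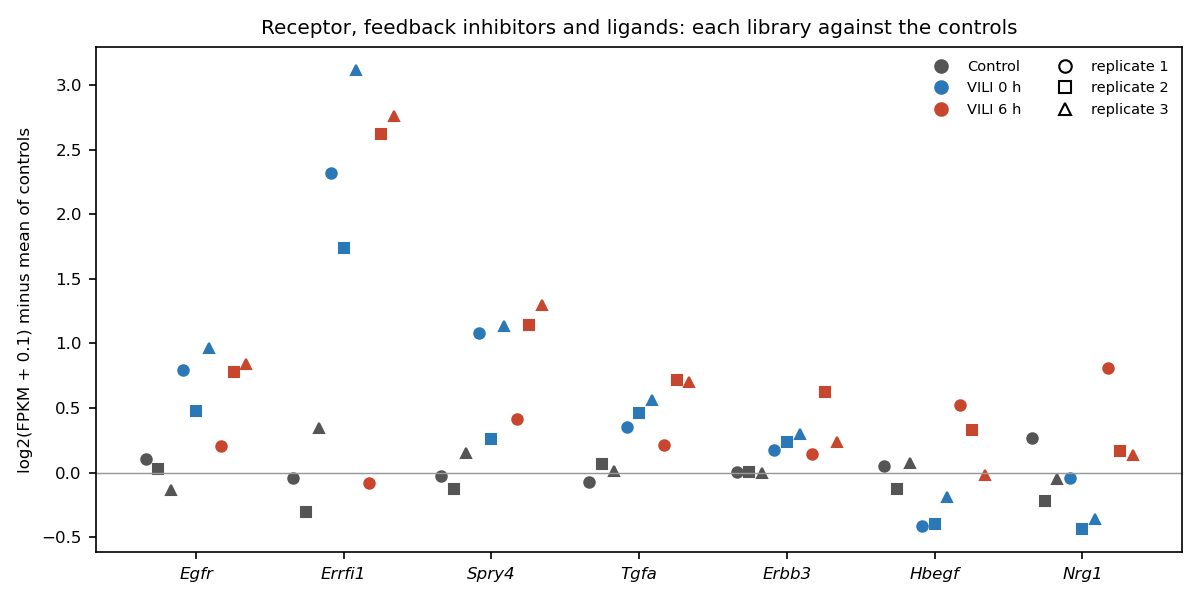
Difference of each library from the control mean on log2(FPKM + 0.1) (vertical axis) for Egfr, Errfi1, Spry4, Tgfa, Erbb3, Hbegf and Nrg1, colored by group with symbols for replicates 1, 2 and 3. Replicate 1 of VILI 6 hours is the lowest of its group for the first 5 genes (0.21 for Egfr, −0.08 for Errfi1) and the highest for Hbegf (0.52) and Nrg1 (0.81).

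Of 26 signal transducers, 1 rose and 1 fell at 0 hours, 5 rose and 2 fell at 6 hours and 4 were higher at 6 than at 0 hours. In all, 2, 7 and 4 of the 26 passed, against 16.2%, 20.4% and 10% of all genes. Gab2, a docking protein, rose by 0.94 at 0 hours (adjusted p = 0.235), and Braf, a kinase of the MAP kinase cascade, fell by 0.24 (adjusted p = 0.270). Stat3, a transcription factor activated by cytokine and growth factor receptors, rose by 0.74 at 6 hours against control (adjusted p = 0.0733) and by 0.41 against VILI 0 hours (adjusted p = 0.458). Pik3r1, the regulatory subunit of PI3 kinase, fell by 0.35 at 6 hours against control (adjusted p = 0.103), and the transcription factor gene Stat5a was 0.59 higher at 6 than at 0 hours (adjusted p = 0.370). Several of these calls depended on single libraries. Gab2 missed the threshold without control replicate 1 or 3 or VILI 0 hours replicate 1, and Braf without any 1 control or VILI 0 hours replicate 1 or 2, with libraries centred on their medians (−0.13) and with eBayes without trend. Stat3 between the times missed it without any 1 library of VILI 0 hours or replicate 2 or 3 of VILI 6 hours (0.27 to 0.63 over all libraries left out), with median centring, with the 6 libraries alone, with eBayes without trend and in its row with the highest mean, and Stat5a missed it in its row with the highest mean.

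Of 13 response genes, induced in many cells by growth factors and by other stimuli, 3 rose and 1 fell at 0 hours, 4 rose and 0 fell at 6 hours, and 2 were higher at 6 than at 0 hours, that is 4, 4 and 2 of 13 against 16.2%, 20.4% and 10% of all genes. Junb, of the AP-1 factors, rose by 1.30 (adjusted p = 0.138) and 1.58 (adjusted p = 0.0811), from 21.9 to 27.3 FPKM in control to 39.98 to 101 and 46.6 to 111. Jun rose by 0.67 at 0 hours (adjusted p = 0.105), and Mcl1, an inhibitor of apoptosis, rose by 0.58 (adjusted p = 0.102) and 0.46 (adjusted p = 0.140). Fosl1, also of AP-1, had 0.0242, 0 and 0.0341 FPKM in control, 0.139, 0.0213 and 0.0751 in VILI 0 hours and 0.216, 0.463 and 4.15 in VILI 6 hours. It was higher at 6 hours by 2.94 against control (adjusted p = 0.116) and by 2.41 against VILI 0 hours (adjusted p = 0.393), or by 1.83 and 1.30 without replicate 3, its highest library. Over the libraries of control and VILI 0 hours its mean was 0.0489 FPKM, so Fosl1 passed the minimum of 0.1 FPKM only through VILI 6 hours, where it is high, and its calls are no support for the count. Ccnd1, encoding cyclin D1, fell by 0.43 at 0 hours (adjusted p = 0.248, a value added after it was seen and not repeated with libraries left out), differed from control by 0.08 at 6 hours (−0.29 to 0.45) and was 0.51 higher at 6 than at 0 hours (adjusted p = 0.369). Fosl1 missed the threshold between the times without VILI 0 hours replicate 2 and with a pseudocount of 1 (0.96), and Ccnd1 was 0.31 higher without VILI 6 hours replicate 1. Without VILI 6 hours replicate 1, the 6 hours values against control of Adam8 (1.67), Furin (0.90), Adam15 (0.98), Ptpn1 (1.23), Spry4 (1.22), Lrig3 (−0.52), Stat3 (0.96), Pik3r1 (−0.38), Junb (1.88), Mcl1 (0.60) and Fosl1 (3.71) kept their direction and passed the threshold.

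The genes whose pattern over the 9 libraries was most like that of a member were sought among 13982 genes with a mean of at least 1 FPKM. These correlations share libraries and the grouping, and are given as a description. For Egfr they were Itpk1 (Pearson r = 0.986, Spearman rho = 0.917), Klhl2 (0.985, 0.967) and Gm11827 (0.982, 0.933). Klhl2 was at 10.8, 10.2 and 9.65 FPKM in control, 23.6, 19.5 and 26.5 in VILI 0 hours and 11.9, 24.6 and 26.7 in VILI 6 hours, again with replicate 1 of VILI 6 hours nearest to control. For Areg they were Grpel1 (0.963, 0.933), Tmem170b (0.944, 0.867) and Rsl1d1 (0.927, 0.900), whose highest levels fell in the same libraries of VILI 0 and 6 hours as those of Areg. For Hbegf they were Yars (0.954, 0.950), Gpr39 (0.951, 0.950) and Cftr (0.933, 0.850), each lower in all VILI 0 hours libraries than in any control.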

How the data were processed

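Lung RNA depleted of rRNA from 9 mice was sequenced, 1 library per mouse, and groups were taken from the sample labels. The authors filtered the reads for quality and adapters, mapped them with TopHat2 2.0.9 and Bowtie2 2.0.6, assembled transcripts with Scripture and Cufflinks, and took FPKM for each transcript from Cuffdiff 2.1.1. The labels and the methods name different library kits and sequencers. The genome build is not given in the sources used here. The deposited table holds 60108 rows with no transcript names. Symbols and positions came from GENCODE M21 (GRCm38), which held 23580 of its 23713 Ensembl IDs.

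FPKM were summed per gene. Genes with a mean of at least 0.1 FPKM (19378) were fitted on log2(FPKM + 0.1) by limma 3.58.1 (R 4.3.3), using lmFit and a trended eBayes, over all 9 libraries together and with group alone in the model. Calls use an unadjusted P under 0.05, two-sided, and the Benjamini-Hochberg adjustment runs over all 19378 genes. With 3 libraries on each side, the smallest two-sided p of an exact permutation test is 0.1. No counts were used, so precision is known only from replicate spread, and P measures the spread between these mice. The procedure was tested on simulated data.

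All 10 members were named, with at most the 3 genes of lowest P among those called per list and comparison, and the 3 genes most correlated with Areg, Hbegf and Egfr. A gene that this rule would name is not reported here. Errfi1 at 6 hours and Spry4 at 0 hours were added after values had been seen, as were Rhbdf2, Adam9 and Bace1 at 6 hours against control. The members and lists were chosen with earlier results of these data known, so their counts are descriptions.

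Alternatives were pseudocounts of 0.01 and 1, a mean of at least 1 FPKM, no filter, centring each library on its median, a fit of the compared 6 libraries alone, array weights, a block for replicate number, eBayes without trend, the row of highest mean per gene, and each library left out. Start regions came from RefSeq (GRCm38.p6) and were searched on both strands. Figures used Python 3.11.15, pandas 2.3.3, numpy 2.4.6 and matplotlib 3.10.9.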

Additional observations from a re-analysis of the deposited data

Results flagged for a closer look

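Against the shared controls, Hbegf differed by −0.33 at 0 hours and by 0.28 at 6 hours on the log2 scale, and the test of the difference between these effects gave 0.61 (limma, adjusted p = 0.248). It was higher at 6 hours in 3 of 3 libraries than in any library of VILI 0 hours. Nrg1 differed by −0.28 and 0.37 against control, and the difference between these effects was 0.65 (limma, adjusted p = 0.403), again with 3 of 3 libraries higher. Because the controls cancel, both are the comparison of the VILI groups given above.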

How the results depend on the processing

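With the 6 libraries of a comparison alone, 22 other pathway genes and 5094 of all genes were called at 0 hours, and 1210 of all genes between the VILI groups (main values 14, 3130 and 1938). Array weights did not converge, with a weight of 23.6 on VILI 6 hours replicate 2 against 0.150 to 1.72 elsewhere, and say nothing on stability: they gave 24, 51 and 37 other pathway genes and 5630, 12154 and 7848 of all genes at 0 hours, 6 hours and between them, and 7 members at 6 hours and 7 between the times. They also turned Areg (−0.26, −0.82 and −0.55), Erbb2 at 6 hours (0.11), Egfr between the times (0.046) and Adam17 between the times (−0.19). Median centring moved all differences against control by 0.11 and 0.13 and those between the times by 0.01. It turned Adam17 (0.034 and 0.058) and Erbb2 at 6 hours (0.084), and moved the higher share of all calls from 42.1% to 61.2% at 0 hours and from 40.1% to 58.1% at 6 hours. Under it Hbegf at 6 hours (0.40), Nrg1 at 6 hours (0.50) and Erbb3 at 0 hours (0.35) passed the limma threshold and Hbegf at 0 hours did not. Ereg at 6 hours did not pass with a pseudocount of 1 (0.49) and was not tested at a mean of at least 1 FPKM. The cause of these changes was not tested. With each library left out, members called ranged from 1 to 3 at 0 hours, 2 to 5 at 6 hours and 1 to 3 between the times, with the lowest without control replicate 1, control replicate 3, and VILI 0 hours replicate 2 or 3. Other pathway genes ranged over 10 to 20, 17 to 33 and 8 to 22, and all genes over 1979 to 4493, 2543 to 7526 and 1407 to 4350, the highest without VILI 6 hours replicate 1. Differences that changed sign ranged from −0.60 to 0.50 (Areg) and −0.029 to 0.19 (Btc) at 0 hours, from −0.32 to 0.91 (Areg), −0.15 to 0.14 (Erbb2) and −0.16 to 0.031 (Adam17) at 6 hours, and between the times from −0.42 to 0.93 (Areg), −0.27 to 0.067 (Egfr), −0.0012 to 0.25 (Tgfa), −0.047 to 0.19 (Erbb3) and −0.083 to 0.11 (Adam17). Samples with the same replicate number did not deviate together (correlations −0.22 to 0.02 over 9 pairs, best match with the own number in 1 of 9). This gave no sign of pairing by number, and with so few libraries cannot exclude it. A replicate block left 2, 4 and 2 members, 15, 22 and 10 other pathway genes and 2816, 3485 and 1693 of all genes called, without Hbegf at 0 hours.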

Other observations

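In a few listed genes the FPKM moved between transcript rows of the same gene from library to library. The Stat5a row with the highest mean was at 5.31 and 4.68 FPKM in control replicates 1 and 2 and listed at 0 in control replicate 3, where another of its 5 rows had 4.81 FPKM against 0.0208 or less in the other 8 libraries. For Furin, VILI 0 hours replicate 1 had 10.9 FPKM in the row with the highest mean and 36.6 in the next, against 20.3 to 44.9 and 7.45 to 16.04 in the other 8 libraries. The main row of Cbl, with 7.71 FPKM in control replicate 2 against 16.7 and 16.6 in the other controls, carried most of the gap in the gene sum, and a smaller row was listed at 0 in control replicates 2 and 3 and all VILI 0 hours libraries. These rows were chosen after their values had been seen.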
